A study of Mus musculus with 8 samples.

Results

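The genes described here are 10 genes of the NRF2 pathway and of glutathione supply in mouse Hepa-1 cells: Nfe2l2, Keap1, Slc7a11, Gclc, Gclm, Gsr, Txnrd1, Srxn1, Hmox1 and Nqo1. They were listed by symbol and matched to Entrez identifiers, which found all 10 among the 23403 genes of the count table, and all 10 passed the filter on low counts that left 13619 genes to test. Hepa-1 (Hepa-1c1c7) is a mouse hepatoma line. Its RNA was sequenced in 2 libraries of cells exposed to 25 µM CrK2O4, a Cr(VI) salt, in growth medium during 90 minutes, and in 2 control libraries without chromium whose labels do not say which exposure regimen they were made for. Open chromatin was mapped by FAIRE-seq, in which phenol/chloroform separates DNA free of crosslinked protein from the rest, in 1 library each of the acutely exposed cells, of cells kept in 0.5 µM CrK2O4 over 20 passages, and of the control of each. The control of the long-term cells was also grown over 20 passages, without chromium. All groups are the same cell line, so no other genetic background was measured, and nothing in the labels says that the replicates were separate cultures, so the p-values below measure only the spread between these libraries, which may be technical.

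NRF2, the product of Nfe2l2, is a transcription factor that is held at low levels by KEAP1, an adaptor that presents it to a CUL3 ubiquitin ligase. When oxidants or electrophiles modify cysteines of KEAP1, NRF2 escapes degradation, pairs with small MAF proteins and binds antioxidant response elements (AREs) in genes that make glutathione, reduce thioredoxin, and break down heme and quinones. Hepatocytes hold much glutathione, and glutathione is among the cellular reductants of Cr(VI).

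The RNA-seq libraries held 32319676 to 37696116 counts. The controls were close to each other, with 14 of 13619 tested genes more than 2-fold apart, whereas 1104 genes (8.11%) were more than 2-fold apart between the treated libraries. Library 2 of the treated cells lay further from the controls, with 2508 genes over 2-fold from the control mean against 1240 in library 1, so each value below is given by library. Of the 9 hepatocyte and hepatoma markers none was at 0 in all libraries, Alb, Afp, Trf, Krt8 and Krt18 were abundant in every library, and Apoa1 (at 0 in both controls), Ttr and Hnf4a reached at most 1.86 CPM (counts scaled by the library's total). These 9 markers summed to 4356 to 4470 CPM in controls and 7595 to 7797 CPM in treated cells. Most of the difference was Alb, at 944 and 983 CPM in controls and 3773 and 3181 CPM in treated cells, while Afp lay between 133 and 159 CPM in all 4 libraries. Apoe was 3.33 and 3.90 CPM in controls and 9.12 and 25.2 CPM in treated libraries 1 and 2. The 4 fibroblast markers summed to 681 to 687 CPM in controls and 1228 to 1239 CPM in treated cells, with Col1a2 at 0.152 CPM or less. Within this sum Dcn was 455 and 459 CPM in controls and 987 and 894 CPM in treated libraries 1 and 2. Col1a1 was 212 and 215 CPM in controls and 241 and 326 CPM in treated libraries 1 and 2. Pdgfra went the other way, with 13.4 to 13.5 CPM in controls and 7.0 to 11.1 CPM in treated cells. The 4 macrophage and leukocyte markers summed to no more than 60.6 CPM in controls and to 43.4 to 53.9 CPM in treated cells. Ptprc and Adgre1 were at 0.155 CPM or less. Csf1r was 52.3 and 51.4 CPM in controls and 38.1 and 34.0 CPM in treated libraries 1 and 2. Cd68 was at 5.23 CPM in treated library 1, 19.8 CPM in library 2 and 8.11 to 8.59 CPM in controls. The 3 endothelial markers summed to 0.661 to 0.716 and 1.98 to 2.10 CPM, with Cdh5 at 0 in all libraries. The part of these shifts in the values below was not tested.

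To see which members carry ARE letters at their start, the core TGACNNNGC, in which N is any base, was searched on both strands from 250 bases before to 50 bases after each RefSeq transcription start, beside the AP-1 letters TGANTCA. The letters of both can overlap. Positions are counted from the start and are negative before it. The ARE core was in 12.4% and the AP-1 letters were in 7.81% of all 32851 RefSeq promoters searched. Promoters were listed for 7 of the 10 genes, and those of Hmox1, Gclc and Gsr were not listed. The ARE core was found for 4 of the 7 genes, Nfe2l2, Gclm, Txnrd1 and Srxn1, and the AP-1 letters for Srxn1. These 7 genes have 9 listed promoters, 3 of them of Txnrd1. Counted by promoter, as the shares of all promoters are, 4 of 9 held the ARE core and 1 of 9 the AP-1 letters. A match is a description of the sequence and says nothing about binding. The 250 bases before these starts are printed below with their genes, from RefSeq (GRCm38.p6), 5′ to 3′ on the gene's strand, with matches in capitals.

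Of the 10 genes, 0 passed an adjusted p-value of 0.05 in edgeR's quasi-likelihood test of treated against control libraries, while 631 of the 13619 tested genes did (4.63%), 243 of them with higher (1.78%) and 388 with lower levels (2.85%) after exposure. With treated replicate 1 or 2 left out, which leaves a lone treated library assumed to vary like the controls, edgeR called 7 and 8 of the 10, beside 10995 (77.6%) and 9333 (67.2%) of all genes. The 7 were all higher, and of the 8, 5 were higher and 3 lower (Nqo1, Slc7a11 and Gsr). With control replicate 1 or 2 left out it called 1 of the 10, Hmox1, beside 2.07% and 2.02% of all genes. At an unadjusted p under 0.05 edgeR gave 2 of the 10, Nfe2l2 and Gclc, where 30.7% of all tested genes were under it. DESeq2 called 2 genes at an adjusted p under 0.05, Nfe2l2 and Txnrd1, both higher in treated cells, beside 6.9% of all genes called higher by it. Both treated libraries lay above both controls for 5 of the 10 genes (Nfe2l2, Gclc, Gclm, Txnrd1 and Srxn1), where 32.2% of all tested genes did, and both lay below for 0, where 34.0% did. The median log2 fold change of the 10 genes was 0.31, against -0.0047 over all tested genes. The treated libraries did not give the same picture: library 2 held the higher level of 7 of the 10 genes, among them Hmox1, Txnrd1, Gclm and Gsr, and library 1 that of Nfe2l2, Keap1 and Srxn1. Of all tested genes, 49.4% were higher in library 2. RNA of many cells is pooled in each library, so a larger share of responding cells and a larger response per cell cannot be told apart.

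**Figure D1:**
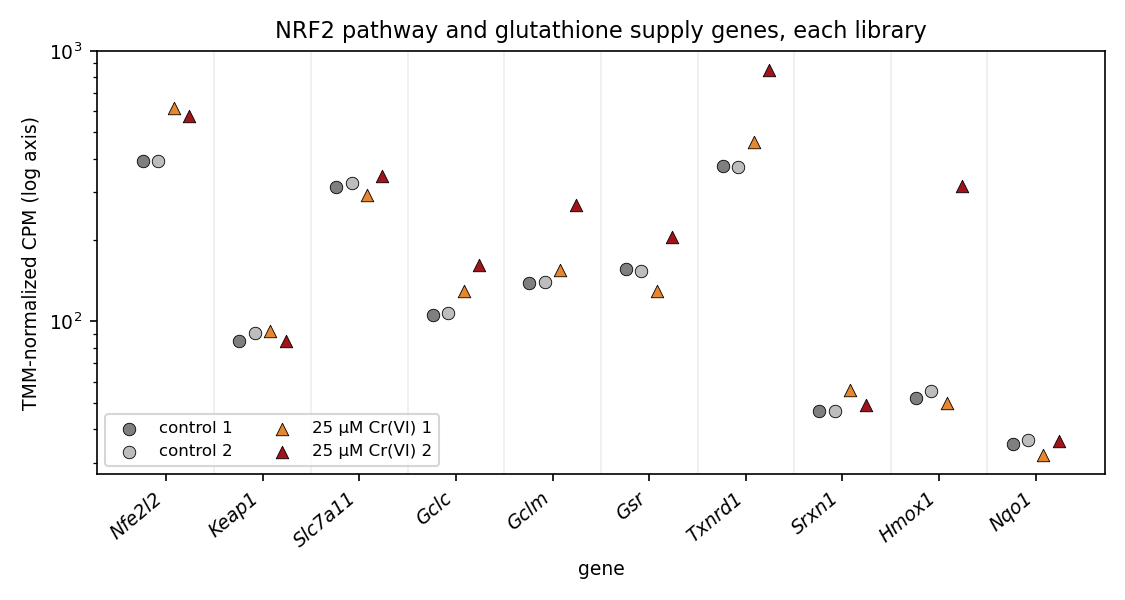
Level of each of the 10 genes in each RNA-seq library, as TMM-normalized CPM on a log axis, with circles for the controls and triangles for cells exposed to 25 µM Cr(VI). The controls lie almost on each other, and the treated libraries part most at Hmox1, with 49.9 CPM in library 1 and 315.9 CPM in library 2.

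The regulators of the pathway came first. Nfe2l2, which encodes NRF2 itself and lies on chromosome 2 from 75675513 to 75704663 (mm10), had 391 CPM (here scaled by TMM) in both controls and 615 and 574 CPM in treated libraries 1 and 2. Both treated libraries were thus above the controls, library 1 by 1.57-fold and library 2 by 1.47-fold. The log2 estimate was 0.60 (SE 0.13, 95% interval 0.25 to 0.96, adjusted p = 0.0763 in edgeR's quasi-likelihood test), or 1.52-fold, and the value stayed between 0.49 and 0.65 over all alternatives. DESeq2 gave 0.60 with an adjusted p of 0.0239. An ARE core match lay at -240 to -232 from the start of Nfe2l2, in the sequence shown here because the gene encodes the factor that binds these elements.
Nfe2l2 promoter, chr2:75704664-75704913, minus strand: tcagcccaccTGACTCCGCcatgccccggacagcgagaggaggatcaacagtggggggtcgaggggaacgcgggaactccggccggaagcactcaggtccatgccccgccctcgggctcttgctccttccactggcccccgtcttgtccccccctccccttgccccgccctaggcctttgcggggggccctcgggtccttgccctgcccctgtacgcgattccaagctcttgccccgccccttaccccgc

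Keap1, whose product marks NRF2 for degradation, lies on chromosome 9 from 21229730 to 21239332. It had 84.8 and 90.6 CPM in the controls and 92.4 and 84.4 CPM in the treated libraries, so that the groups overlapped. This gave a log2 difference of 0.011 (SE 0.11, 95% interval -0.29 to 0.31, adjusted p = 0.957 in edgeR's quasi-likelihood test). A difference of more than 1.24-fold in either direction lay outside this interval. Its promoter held neither the ARE core nor the AP-1 letters.

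Among the members of glutathione supply, Gclc and Gclm stood above the controls in both treated libraries, and Slc7a11 and Gsr did not. Glutamate-cysteine ligase makes the first and rate-limiting step of glutathione synthesis and consists of a catalytic subunit, the product of Gclc, and a modifier subunit, the product of Gclm. Gclc, on chromosome 9 from 77754535 to 77794489, had 106 and 108 CPM in the controls and 129.9 and 162 CPM in treated libraries 1 and 2. All treated values exceeded all control values, and the log2 fold change was 0.45 (SE 0.15, 95% interval 0.061 to 0.84, adjusted p = 0.133 in edgeR's quasi-likelihood test). Gclm, on chromosome 3 from 122245557 to 122267215, had 139 and 140.0 CPM in the controls and 154 and 269.5 CPM in the treated libraries. Again the groups did not overlap, but library 1 was only 1.11-fold and library 2 was 1.93-fold above the control mean. On the log2 scale the difference was 0.60 (SE 0.29, 95% interval -0.17 to 1.37, adjusted p = 0.235 in edgeR's quasi-likelihood test), and it was 0.14 without treated replicate 2 and 0.96 without treated replicate 1. An ARE core match, read on the other strand, lay at -134 to -126 from the start of Gclm, and is shown because Gclm is, with Txnrd1, among the members that differed most between the treated libraries.
Gclm promoter, chr3:122245307-122245556, plus strand: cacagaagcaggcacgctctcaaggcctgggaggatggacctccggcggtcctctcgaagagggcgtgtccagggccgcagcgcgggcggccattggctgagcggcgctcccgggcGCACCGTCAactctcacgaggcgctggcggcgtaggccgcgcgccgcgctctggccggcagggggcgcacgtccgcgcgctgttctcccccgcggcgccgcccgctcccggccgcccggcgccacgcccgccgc

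Slc7a11 encodes xCT, the subunit of the cystine/glutamate exchanger that brings in the cystine from which glutathione is made, and lies on chromosome 3 from 50364936 to 50443613. Its level was 313 and 323 CPM in the controls and 293 and 345 CPM in the treated libraries, which lay on either side of the controls. The fit gave a log2 fold change of 0.0030 (SE 0.14, 95% interval -0.37 to 0.38, adjusted p = 0.991 in edgeR's quasi-likelihood test). Gsr encodes glutathione reductase, which returns oxidized glutathione to its reduced form, and lies on chromosome 8 from 33653238 to 33698162. It also had treated libraries on either side of the controls, with 156 and 154 CPM in the controls, 130.1 CPM in treated library 1 and 205 CPM in treated library 2. The log2 estimate was 0.11 (SE 0.24, 95% interval -0.53 to 0.76, adjusted p = 0.777 in edgeR's quasi-likelihood test), and the sign changed without treated replicate 2, where it was -0.25, against 0.41 without treated replicate 1. The fold changes of Keap1, Slc7a11 and Gsr also changed sign when counts were scaled by library size alone, a scaling that moved the median of all genes to -0.11.

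Of the genes of the thioredoxin branch, Txnrd1 had the larger estimate and the wider interval. Txnrd1 encodes cytosolic thioredoxin reductase, a selenoenzyme that keeps thioredoxin reduced, and lies on chromosome 10 from 82833951 to 82897724. It had 377 and 373 CPM in the controls, 459.7 CPM in treated library 1 and 849.5 CPM in treated library 2. Both treated libraries were above the controls, by 1.23-fold and 2.27-fold. This gave a log2 difference of 0.81 (SE 0.32, 95% interval -0.056 to 1.67, adjusted p = 0.183 in edgeR's quasi-likelihood test), and it was 0.29 without treated replicate 2 and 1.19 without treated replicate 1. DESeq2 called it, with a log2 fold change of 0.80 and an adjusted p of 0.0476. Of the 3 annotated starts of Txnrd1, the promoter of 1 held the ARE core, at -92 to -84 and read on the other strand. These letters were followed by a further A on that strand, a longer form that 3.04% of all promoters held and no other listed member did.
Txnrd1 promoter, chr10:82858956-82859205, plus strand: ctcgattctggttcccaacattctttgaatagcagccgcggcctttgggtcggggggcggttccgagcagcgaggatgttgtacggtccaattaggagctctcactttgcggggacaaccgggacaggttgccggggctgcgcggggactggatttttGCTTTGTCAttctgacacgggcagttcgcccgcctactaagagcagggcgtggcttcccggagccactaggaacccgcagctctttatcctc

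Srxn1 encodes sulfiredoxin, which repairs overoxidized peroxiredoxins, and lies on chromosome 2 from 152105524 to 152111376. It had 46.9 and 46.6 CPM in the controls and 56.0 and 49.2 CPM in the treated libraries, so that both treated libraries were above the controls by a small margin, library 1 by more. On the log2 scale the difference was 0.17 (SE 0.12, 95% interval -0.16 to 0.50, adjusted p = 0.393 in edgeR's quasi-likelihood test). In its promoter the AP-1 letters occurred at -102 to -96 and at -45 to -39, each time as TGAGTCA, and an ARE core match lay at 28 to 36, after the start, outside the stretch printed. The bases from -45 read on as TGAGTCAGC, with G where the searched ARE core has its first C. The sequence is shown because AP-1 letters occurred in no other listed member.
Srxn1 promoter, chr2:152105274-152105523, plus strand: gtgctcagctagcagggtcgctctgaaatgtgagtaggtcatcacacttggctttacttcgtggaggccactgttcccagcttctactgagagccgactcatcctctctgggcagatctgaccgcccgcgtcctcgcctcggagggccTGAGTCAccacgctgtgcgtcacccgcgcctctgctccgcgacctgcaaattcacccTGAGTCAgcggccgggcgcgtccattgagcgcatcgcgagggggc

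Hmox1 held the largest difference of the set, in 1 treated library. It encodes heme oxygenase 1, which degrades heme to biliverdin, iron and carbon monoxide, and lies on chromosome 8 from 75093618 to 75100593. The controls had 52.1 and 55.2 CPM, treated library 1 had 49.9 CPM and treated library 2 had 315.9 CPM. Library 1 was thus below both controls and library 2 was 5.86-fold above their mean. The treated libraries were 6.30-fold apart, a gap that 0.0955% of all tested genes reached, and Hmox1 was the 1 gene of the 10 with a gap over 2-fold. The fit gave a log2 fold change of 1.77 (SE 0.85, 95% interval -0.50 to 4.04, adjusted p = 0.245 in edgeR's quasi-likelihood test). The value rests on treated library 2: it was -0.11 without treated replicate 2 and 2.57 without treated replicate 1. Without control replicate 1 or 2 the log2 fold change of Hmox1 was 1.70 and 1.78. Its standard error in these fits was 0.45 and 0.46, and that of Nfe2l2, whose treated libraries were close, was 0.49 in both, against 0.13 in the main fit. These fits thus did not give the gap between the treated libraries of Hmox1 the weight it had in the main fit. Over the other scalings, no filter on low counts and DESeq2 the adjusted p of Hmox1 ran from 0.229 to 0.334.

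Nqo1 encodes the quinone reductase that is widely used as a marker of NRF2 activity, and lies on chromosome 8 from 107388225 to 107403205. Its level was 35.3 and 36.5 CPM in the controls and 32.1 and 36.3 CPM in the treated libraries, and the groups overlapped. The log2 estimate was -0.070 (SE 0.13, 95% interval -0.41 to 0.27, adjusted p = 0.737 in edgeR's quasi-likelihood test). The upper end of this interval corresponds to 1.21-fold of control. In treated library 2, where Hmox1 was 5.86-fold and Txnrd1 2.27-fold above the control mean, Nqo1 was at 1.01-fold of it.

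**Figure D2:**
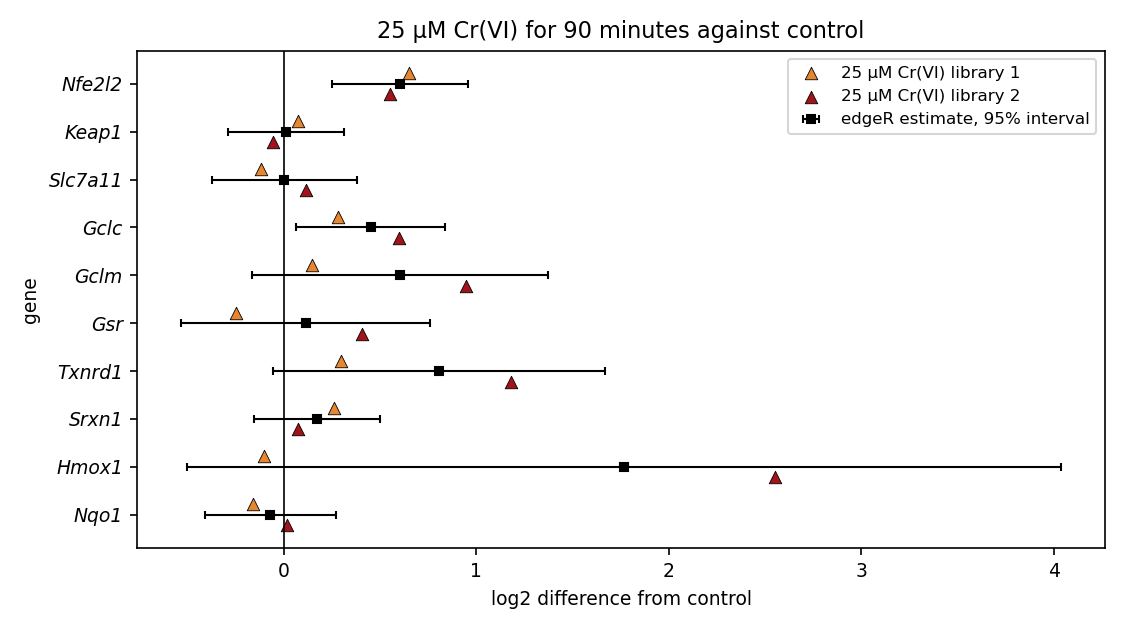
Log2 difference of each of the 10 genes from control: squares with bars are edgeR's estimates with 95% intervals, and triangles are each treated library against the mean of both controls, on log2(CPM + 0.25). The intervals of Nfe2l2 and Gclc lie above 0, that of Hmox1 runs from -0.50 to 4.04, and those of Keap1, Slc7a11 and Nqo1 lie around 0.

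Per kilobase of exon the order of the levels in the controls was Nfe2l2 (102.5 ± 0.0032 CPM per kb, SD, n = 2), Txnrd1 (93.2 ± 0.708), Gclm (67.4 ± 0.261), Gsr (57.9 ± 0.489), Slc7a11 (34.5 ± 0.778), Hmox1 (34.1 ± 1.38), Gclc (29.4 ± 0.393), Nqo1 (23.1 ± 0.536), Keap1 (19.6 ± 0.921) and Srxn1 (16.6 ± 0.0842). Of the neighbours in this order, Slc7a11 and Hmox1 overlapped between the control libraries and all others did not. In treated cells the level per kilobase was highest for Txnrd1 (163 ± 68.6 CPM per kb, SD, n = 2), followed by Nfe2l2 (156 ± 7.71), Hmox1 (116 ± 119) and Gclm (102.3 ± 39.3), and each of these overlapped with the next. Keap1, Nqo1 and Srxn1 were the lowest in both groups.

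The treated libraries also differed in a trend with gene length. In treated library 2 the median log2 difference from the control mean was 0.17 for the quartile of tested genes with the shortest exons, up to 1821 bp, and -0.28 for the quartile with the longest, from 4519 bp. In library 1 these medians were -0.028 and 0.0021. Hmox1 (1576 bp) and Nqo1 (1552 bp) belong to the shortest quartile, and their log2 differences in library 2 were 2.55 and 0.016. Gclm (2072 bp), Gsr (2672 bp) and Srxn1 (2812 bp) belong to the second quartile, with a median of 0.027 in library 2, and had 0.95, 0.40 and 0.075. Gclc (3631 bp), Nfe2l2 (3818 bp), Txnrd1 (4019 bp) and Keap1 (4470 bp) belong to the third, with a median of -0.063, and had 0.60, 0.55, 1.18 and -0.054. Slc7a11 (9227 bp), in the longest quartile, had 0.12. The part of this trend in each gene's value was not tested. Among all tested genes, 0.756% lay as far above the controls as Hmox1 in library 2, and 40.5% as far below them as Hmox1 in library 1. As far above as Txnrd1 lay 25.1% of genes in library 1 and 6.01% in library 2, as far as Gclm 37.3% and 8.89%, and as far as Nfe2l2 9.29% and 19.3%.

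**Figure D3:**
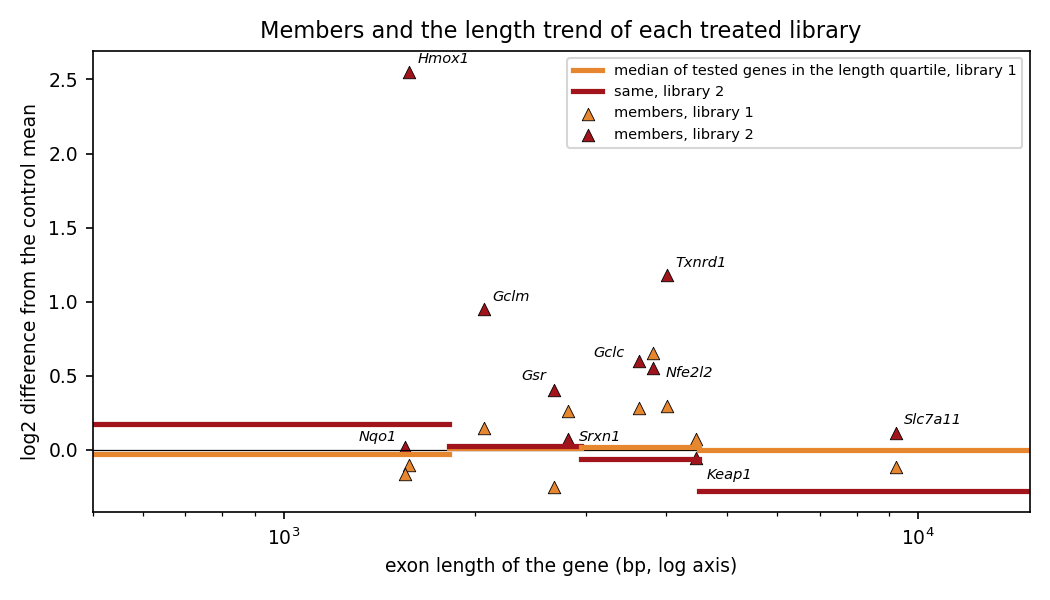
Log2 difference from the control mean, on log2(CPM + 0.25), against the exon length of the gene in bp on a log axis, for each of the 10 genes in both treated libraries (triangles) and as the median of all tested genes in each quartile of exon length (lines, cut at the ends of the axis). In library 2 the medians fall from 0.17 to -0.28 with length, Hmox1, Txnrd1 and Gclm lie furthest above the line of their quartile, and Nqo1 lies below it.

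The other genes of the pathway were taken from 5 lists of 66 genes, of which 63 had enough counts to test and 3 passed the test in edgeR, 2 higher and 1 lower, where 4.63% of all tested genes passed. The median log2 fold change of the 63 genes was 0.20. Both treated libraries lay above both controls for 27 of them and below for 16, shares of 42.9% and 25.4% beside the 32.2% and 34.0% of all tested genes. The 5 lists differed in this. The shares above and below were 66.7% and 0% for thioredoxin and peroxiredoxin, and 57.9% and 21.1% for heme, quinone and detoxification. They were 33.3% and 33.3% for the regulators of NRF2, 25.0% and 41.7% for glutathione, and 12.5% and 37.5% for NADPH supply. In library 2, 11 of the 63 genes were more than 2-fold above the control mean, and in library 1, 2 were, where 8.15% and 4.11% of all tested genes were in these libraries. Library 2 held the higher level of the pair for 45 of the 63 (71.4%), where 49.4% of all genes did. The part of the trend with gene length in this share was not tested.

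Of the thioredoxin and peroxiredoxin list, all 12 genes were tested, with a median log2 fold change of 0.35, 1 gene called higher and none lower. Txnip, whose product binds and inhibits thioredoxin and responds to glucose, rose from 73.6 and 75.7 CPM in the controls to 244 and 257 CPM in the treated libraries. The treated libraries were close to each other and far above the controls, with a log2 fold change of 1.75 (SE 0.11, adjusted p = 0.0282 in edgeR's quasi-likelihood test), and Txnip passed the test under every alternative. All 12 genes were higher in treated library 2 than in library 1, where 49.4% of all tested genes were. The median log2 gap between these libraries was 0.47 for the 12 genes. Over all tested genes it was 0.24 in the quartile with the shortest exons and -0.25 in that with the longest. The part of this length trend in the count was not tested. The widest gap was that of Sesn2, named here after its values were seen, which encodes a stress-induced sestrin and had 36.9 and 38.0 CPM in the controls, 50.0 CPM in library 1 and 177 CPM in library 2 (adjusted p = 0.172 in edgeR's quasi-likelihood test). It passed in DESeq2 (adjusted p = 0.00419).

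Of the glutathione list, 12 of 14 genes were tested, with a median log2 fold change of 0.15, and 1 was called. Oplah, which encodes 5-oxoprolinase, the enzyme that returns 5-oxoproline to glutamate, rose from 1.12 and 1.28 CPM to 3.40 and 4.28 CPM, which rest on 39, 50, 115 and 124 counts. This gave a log2 difference of 1.67 (SE 0.26, adjusted p = 0.0478 in edgeR's quasi-likelihood test), close to the threshold. With library size alone the adjusted p was 0.0549, and without control replicate 1 or 2 the adjusted p was 0.375 and 0.285. Chac1, whose product degrades glutathione, is named after its values were seen, as the gene of this list that parted most between the treated libraries. It had 9.15 and 9.31 CPM in the controls, 4.49 CPM in library 1 and 1.42 CPM in library 2 (adjusted p = 0.144 in edgeR's quasi-likelihood test), and it passed in DESeq2 (adjusted p = 0.00906). Cbs and Abcc1 were not tested, with at most 10 and 8 counts in a library.

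The list of heme, quinone and detoxification genes had 19 of 20 genes tested, a median log2 fold change of 0.26 and 1 called gene. Abcc3, an exporter of conjugated organic anions, fell from 68.4 and 68.5 CPM in the controls to 39.0 and 31.9 CPM in treated cells. On the log2 scale the difference was -0.95 (SE 0.14, adjusted p = 0.0465 in edgeR's quasi-likelihood test), and the adjusted p was 0.0743 with library size alone and 0.214 and 0.217 without control replicate 1 or 2. Osgin1, an NRF2-responsive growth inhibitor named after its values were seen, also parted between the treated libraries, with 15.4 and 16.8 CPM in the controls, 31.8 CPM in library 1 and 182 CPM in library 2 (adjusted p = 0.130 in edgeR's quasi-likelihood test). It did not pass in DESeq2 (adjusted p = 0.0758). For both ferritin chains, Fth1 and Ftl1, also named after their values were seen, which store the iron that heme breakdown releases, library 1 was 1.68-fold and 1.27-fold and library 2 was 2.90-fold and 2.45-fold above the control mean, and neither passed the test in edgeR (adjusted p = 0.106 and 0.187), while DESeq2 called both (adjusted p = 0.00052 and 0.0300). Cbr3 was not tested, with at most 10 counts in a library.

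Among the 12 regulators of NRF2, all tested, 0 were called in edgeR (4 at an unadjusted p under 0.05, where 30.7% of all tested genes were), with a median log2 fold change of -0.0093. DESeq2 called 3 of them, Cul3 lower and Maff and Mafk higher, where it called 14.2% of all genes. These 3 are named after their values were seen. Cul3, the scaffold of the ligase that KEAP1 serves, had 234 and 225 CPM in the controls and 143 and 149 CPM in treated cells (adjusted p = 0.0526 in edgeR's quasi-likelihood test). In edgeR it passed with library size alone (adjusted p = 0.0489) and without the filter (adjusted p = 0.0472), and had 0.576 and 0.514 without control replicate 1 or 2. Mafk, a small MAF partner of NRF2, had 82.7 and 84.6 CPM in the controls, 91.2 CPM in library 1 and 303 CPM in library 2 (adjusted p = 0.230 in edgeR's quasi-likelihood test). Maff, another small MAF gene, had 55.8 and 54.3 CPM in the controls and 92.4 and 138 CPM in treated libraries 1 and 2 (adjusted p = 0.0710, same test). Mafg, also a small MAF gene and named after its values were seen, went the other way. It had 53.9 and 50.1 CPM in the controls and 42.5 and 38.0 CPM in treated libraries 1 and 2 (adjusted p = 0.142, same test). In the NADPH supply list 0 of 8 genes were called in edgeR (3 at an unadjusted p under 0.05, beside the same 30.7%) and 0 in DESeq2, with an edgeR median log2 fold change of -0.052. That list included Slc7a5, an amino acid transporter gene that does not supply NADPH, with a log2 fold change of -0.21. Over the 5 lists the treated libraries were more than 2-fold apart for 5 of 63 genes, where 8.11% of all tested genes were. These were Osgin1, Sesn2 and Mafk, higher in library 2, and Chac1 and Trim21, lower in it, with Trim21 too named after its values were seen.

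**Figure D4:**
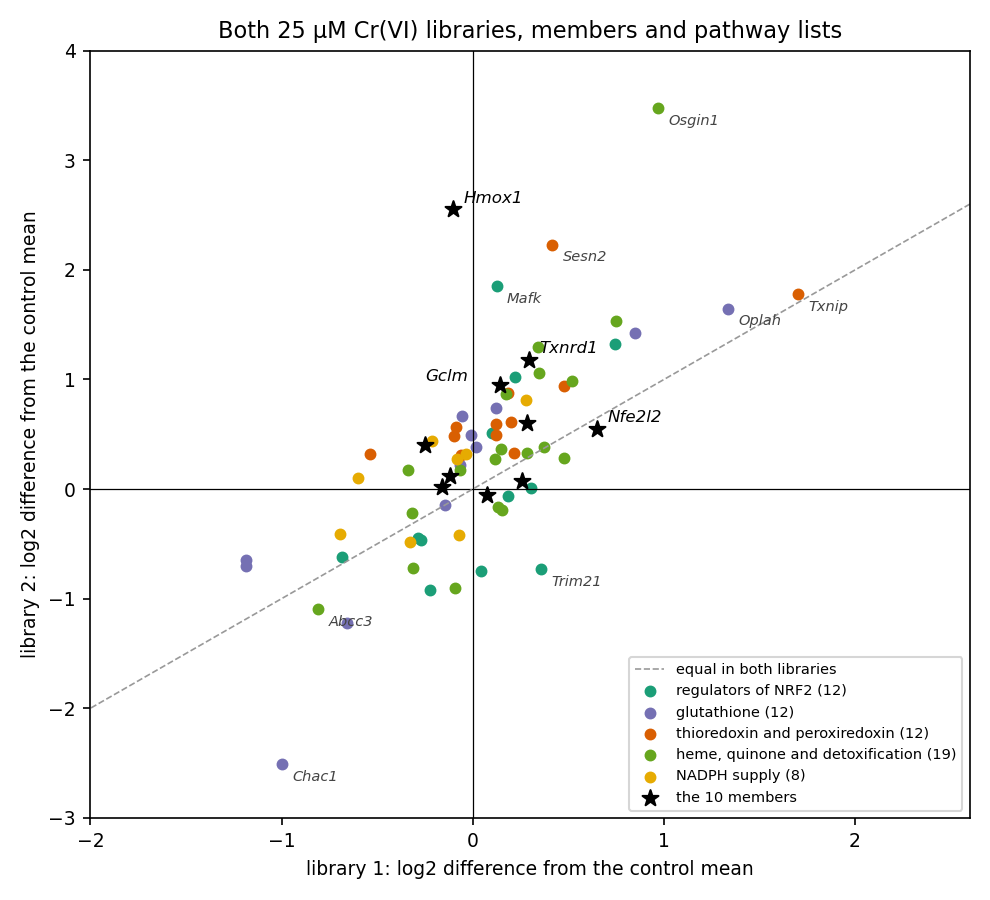
Log2 difference from the control mean in treated library 1 (x axis) and treated library 2 (y axis), on log2(CPM + 0.25), for the 10 genes (stars) and the tested genes of the 5 pathway lists (dots, with the number of genes in the legend). Txnip and Oplah lie near the dashed line of equal values, and Hmox1, Osgin1, Sesn2 and Mafk lie far above it.

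FAIRE peaks called in treated against control cells were then searched at the 10 genes, in 2945 peaks of the acute list and 860 of the long-term list. Both lists hold regions more open in treated than in control cells. The paper also reports regions that closed after exposure, and these were not searched here. Each list compares 1 treated with 1 control library and holds no read counts, so these positions have no replicate check. Within 10 kb of a gene, the acute list had a peak at 1 of the 10, Nqo1, where 6.67% of 45545 annotated genes had one, and the long-term list had a peak at 0 of the 10, where 2.07% of all genes had one. The Nqo1 peak, on chromosome 8 from 107401935 to 107402036 (mm10), was 102 bp wide and lay in the first of the 5 introns, with its centre 1.22 kb downstream of the start. Its score of 55.5, on a scale of -10 log10 of the p-value from the peak caller MACS, was below the median of the list, 57.2, and 1 of 10 became 0 of 10 when only scores of at least 60 were counted. The RNA of Nqo1 in treated libraries 1 and 2 was 0.895-fold and 1.01-fold of the control mean. The sequence of the peak, read from GRCm38 on the strand of Nqo1, is shown as the one region of both lists at a member. It has a GC content of 49.0% and held neither the ARE core nor the AP-1 letters, so that no base is in capitals.
Nqo1 intron peak, chr8:107401935-107402036, minus strand: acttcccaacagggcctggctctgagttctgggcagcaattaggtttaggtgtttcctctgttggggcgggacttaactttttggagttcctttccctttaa

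At the other 9 genes the nearest peak of the acute list lay 68.7 kb (Gclm) to 798 kb (Txnrd1) from a start. Hmox1, with the largest RNA difference of the set, had its nearest acute peak 318 kb and its nearest long-term peak 334 kb away. In the long-term list the nearest peak to any of the 10 genes was at Nfe2l2, 45.9 kb downstream of its start and 16.1 kb beyond its end, on chromosome 2 from 75658074 to 75659437 in an exon of Hnrnpa3, with a score of 60.9. Counting peaks within 50 kb gave Nfe2l2 in the long-term list and left Nqo1 as the 1 gene in the acute list, where 5.21% and 17.7% of all genes had a peak. The remaining long-term distances ran from 169.8 kb at Txnrd1 to 5621 kb at Gclc.

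**Figure D5:**
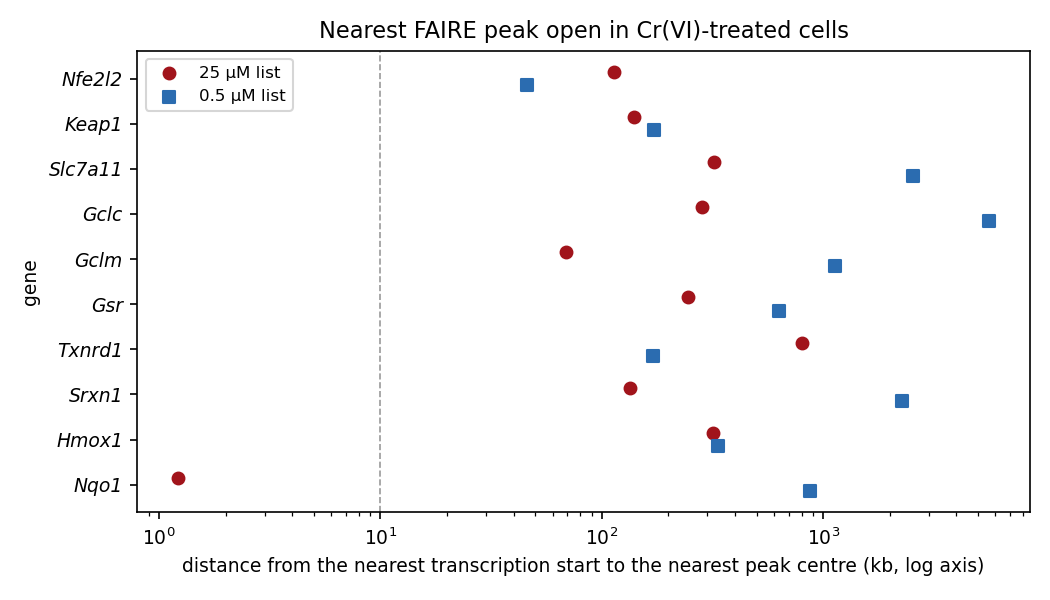
Distance in kb, on a log axis, from the nearest annotated start of each of the 10 genes to the centre of the nearest FAIRE peak of the acute list (circles) and of the long-term list (squares), with 10 kb as a dashed line. Nqo1 has an acute peak at 1.22 kb, and all other distances are at least 45.9 kb.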

How the data were processed

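RNA-seq counts and FAIRE peak lists were used as deposited. The authors aligned RNA-seq reads to mm10 with TopHat and deposited whole read counts per Entrez gene, not normalized. The counting tool, its annotation and its use of strand are not given in the sources used here. No exon of a member is shared with another RefSeq gene. For FAIRE-seq the authors aligned reads with BWA and called peaks of 1 treated against 1 control library with MACS at default settings, and the deposited score is -10 log10 of the peak's p-value, at least 50. The submitters' processing notes also name CASAVA 1.8, bcl2fastq and DESeq.

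Symbols, positions, exon lengths and promoters came from RefSeq (GRCm38.p6, the assembly of mm10), in which 23305 of 23403 Entrez identifiers were found. Counts were filtered with filterByExpr, scaled by TMM and tested with edgeR 4.0.16 (glmQLFit, glmQLFTest, two-sided, Benjamini-Hochberg over 13619 genes, threshold 0.05, no block) in R 4.3.3. Standard errors and 95% intervals came from the fit's information matrix and moderated dispersion. Values of single libraries are log2(CPM + 0.25). Overlap with a peak meant at least 1 shared base with the gene and 10 kb to either side. The 10 members, the 5 pathway lists, the marker lists and the sequences searched were chosen with earlier results of these data known. The named genes are all members and, of each list, at most the 5 called genes with the largest change. Sesn2, Chac1, Osgin1, Fth1, Ftl1, Cul3, Maff, Mafg, Mafk and Trim21 were named after their values were seen, and the untested genes of the lists are named as such. Slc7a5 is named because it was listed under NADPH supply.

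Depth was 32319676 to 37696116 counts per library, and intervals cover the spread between these libraries only. The replicate numbers of the labels gave a correlation of 0.106 between same-numbered libraries' deviations. With 2 pairs and no statement of a shared batch this does not pair them. The chi-square per gene was 2.15 between controls and 123 between treated libraries, so neither pair differed by less than counting noise. Alternatives were a replicate block, library size only, DESeq2 size factors or upper-quartile factors in edgeR, no filter, DESeq2 1.42.0, each library left out, other peak windows and scores, and longer ARE letters. The edgeR fit was tested on simulated data and the letter search on sequences with known matches. RNA-seq of cells kept in 0.5 µM CrK2O4 was not analysed here. Figures were drawn with matplotlib 3.10.9 in Python 3.11.15.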

Additional observations from a re-analysis of the deposited data

How the results depend on the processing

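The number of the 10 genes that passed the test was 0 with every other scaling in edgeR and without a filter on low counts, 2 with DESeq2, 2 with the replicate block (Hmox1, log2 fold change 1.23, adjusted p = 4.91e-06, and Txnrd1, 0.74, adjusted p = 0.0432, edgeR), and 1 to 8 with each library left out. The replicate numbers do not mark pairs by any label, and the cause of the block's effect was not tested. Without treated replicate 1 and without treated replicate 2, 7 and 8 of the 10 passed, beside 10995 and 9333 of all genes. There the lone treated library is assumed to vary like the controls, which differed little. Without control replicate 1 or 2, the standard error of Hmox1 was 0.45 and 0.46, against 0.85 in the main fit. That of Nfe2l2 was 0.49 in both, against 0.13. Over all genes, DESeq2 called 2015 (978 higher, 1037 lower), the replicate block 2969, and fits with each library left out 287 to 10995, against 631. Of the 5 pathway lists, 16 of the 63 genes with an adjusted p passed in DESeq2, where 14.2% of all genes did. With the replicate block 15 of 63 passed, where 2969 of 13619 genes did. Among these 15 were Txnip, Oplah, Abcc3, Cul3, Maff, Mafk, Sesn2, Chac1, Osgin1 and Fth1. Without the filter 5 of 66 passed, where 777 of 18864 genes did, against 3 of 63 in the main fit.

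Nfe2l2, Gclc, Gclm, Txnrd1 and Srxn1 kept a positive log2 fold change in all 10 alternatives. That of Keap1 was -0.096 with library size only, -0.016 without the filter and -0.057 to 0.072 with each library left out. That of Slc7a11 was -0.12 with library size only, -0.027 without the filter, -0.0014 with the replicate block, -0.0027 in DESeq2 and -0.12 to 0.13 with each library left out. Gsr had -0.021 with library size only. With each library left out Gsr ran from -0.25 to 0.41, Hmox1 from -0.11 to 2.57 and Nqo1 from -0.16 to 0.026. The acute peak at Nqo1 was lost with scores of at least 60 (0 of 10 genes), the 50 kb window gave 1 gene, Nfe2l2, in the long-term list, and the longer ARE letters were found for 1 gene, Txnrd1, in place of 4. Each member had at least 1052 counts in every library. How far depth, spread and the number of libraries limit the calls was not tested.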
